A study of Mus musculus with 19 samples.

Results

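The replication-dependent histone genes encode the bulk histones that package DNA newly made in S phase. On these arrays they were taken as every probe whose name began with HIST1H, HIST2H, HIST3H or HIST4H, which gave 89 probes under 59 gene names out of 45281 probes and 30774 names. A probe was tested where its detection p-value, which sets its signal against negative control beads, was under 0.05 on at least 3 arrays; 63 histone probes under 41 names passed, of 21083 tested probes in all. By class, 4 of 7 H1 probes, 21 of 24 H2A, 14 of 20 H2B, 12 of 18 H3 and 12 of 20 H4 probes were tested. The 26 untested probes never exceeded a deposited intensity of 94.8, and 10 of them were detected on 0 arrays. They include all probes for the testis genes H1f6, H2ac1 and H2bc1 and for the HIST3 and HIST4 genes. Current symbols are used below; the older array name is given in brackets where a gene is first described.

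Gastrocnemius muscle of CD1 mice aged 2 months was profiled on 19 single-colour Illumina bead arrays. The groups were ischemic muscle after anti-miR-210 (4 arrays), ischemic muscle after scramble (4), non-ischemic muscle after anti-miR-210 (4), non-ischemic muscle after scramble (4) and untreated muscle (3). Anti-miR-210 is a locked nucleic acid oligonucleotide complementary to miR-210, a microRNA that hypoxia induces, and scramble (SCR) is a control oligonucleotide; both were 15 nucleotides long and were given by tail vein at 12 mg/kg in 200 µl, 2 days before the femoral artery was dissected on the left side. In the groups given an oligonucleotide, muscle was taken 3 days after surgery. For untreated muscle no oligonucleotide and no time after surgery is labelled. The labels do not say which limb the non-ischemic muscles came from, and do not describe the replicates as different animals. The p-values therefore reflect only how much these samples vary, which may be technical variation.

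A nucleosome holds a pair each of H2A, H2B, H3 and H4: H3 and H4 form a tetramer, dimers of H2A and H2B bind on either side of it, and H1 binds the linker DNA between nucleosomes. The replication-dependent genes lie in clusters, have many near-identical copies, and are transcribed mainly in S phase under the coactivator Npat. Their messenger RNAs normally end in a stem-loop bound by Slbp in place of a poly(A) tail, and they are degraded when DNA synthesis stops; some of the genes also give polyadenylated transcripts, in differentiated cells among others. The cRNA kit named in the labels primes from poly(A), so an array of this kind reads polyadenylated histone transcripts more readily than stem-loop ones. The probe sequences were not used here, so a probe that also matches a near-identical copy cannot be told from one that does not.

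Many H2A and H2B genes stand head to head and share 1 promoter. The 4 such pairs found among tested genes with a promoter in the RefSeq table are shown first. Probes named for their H2A and H2B members changed in opposite directions in ischemic muscle. The only H2ac11 probe passed the detection filter through ischemic arrays, so its direction adds nothing. Each window runs from 250 bases before to 50 bases after the start of the H2A gene in RefSeq on GRCm38.p6, 5′ to 3′ along the H2A strand; it shares 263 bases with the window of H2bc15, 277 with that of H2bc12, 252 with that of H2bc11 and 273 with that of H2bc7. Capitals mark the CCAAT box, the TATA box (searched as TATAAA) and the octamer (searched as ATTTGCAT) on either strand; a match is a description of the letters and not a bound site.
H2ac15 (chr13:21753863-21754162, - strand): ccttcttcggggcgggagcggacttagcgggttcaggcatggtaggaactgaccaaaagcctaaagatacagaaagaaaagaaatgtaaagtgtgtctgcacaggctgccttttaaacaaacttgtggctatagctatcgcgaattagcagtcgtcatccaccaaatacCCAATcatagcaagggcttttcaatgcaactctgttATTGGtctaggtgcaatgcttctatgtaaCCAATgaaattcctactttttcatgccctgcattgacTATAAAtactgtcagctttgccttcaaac
H2ac12 (chr13:22035594-22035893, - strand): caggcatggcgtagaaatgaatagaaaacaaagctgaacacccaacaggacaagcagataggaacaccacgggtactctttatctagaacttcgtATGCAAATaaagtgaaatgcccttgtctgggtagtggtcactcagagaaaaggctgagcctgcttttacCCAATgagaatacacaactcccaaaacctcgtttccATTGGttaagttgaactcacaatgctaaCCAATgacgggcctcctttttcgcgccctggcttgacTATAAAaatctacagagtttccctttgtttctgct
H2ac11 (chr13:22042900-22043199, - strand): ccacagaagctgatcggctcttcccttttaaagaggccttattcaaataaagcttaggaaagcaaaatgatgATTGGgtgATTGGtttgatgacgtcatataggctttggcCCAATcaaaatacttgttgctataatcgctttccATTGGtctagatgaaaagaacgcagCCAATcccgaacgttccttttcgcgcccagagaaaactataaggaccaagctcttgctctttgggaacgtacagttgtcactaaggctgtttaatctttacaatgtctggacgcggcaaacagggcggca
H2ac7 (chr13:23574131-23574430, + strand): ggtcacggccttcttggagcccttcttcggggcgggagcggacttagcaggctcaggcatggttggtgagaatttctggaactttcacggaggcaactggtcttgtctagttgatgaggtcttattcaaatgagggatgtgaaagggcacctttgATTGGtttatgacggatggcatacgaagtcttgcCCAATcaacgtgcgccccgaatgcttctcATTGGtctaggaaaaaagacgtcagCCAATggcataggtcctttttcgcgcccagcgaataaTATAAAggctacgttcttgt
The last window printed is that of H4c8, the gene whose probe fell most of all histone probes; it holds none of the 3 motifs.
H4c8 (chr13:23530794-23531093, + strand): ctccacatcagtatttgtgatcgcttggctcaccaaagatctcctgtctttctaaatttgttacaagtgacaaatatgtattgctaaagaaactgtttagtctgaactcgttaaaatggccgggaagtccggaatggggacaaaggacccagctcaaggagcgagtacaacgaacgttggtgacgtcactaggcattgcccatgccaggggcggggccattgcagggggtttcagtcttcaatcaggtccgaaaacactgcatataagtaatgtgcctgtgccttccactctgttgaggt
Of the 59 gene names, 53 had a promoter in the RefSeq table, as had 37 of the 41 tested names, 31 of these on chromosome 13 and 6 on chromosome 3; 1 gene had 2 windows, which makes 54. CCAAT was found in 17 of 17 H2A, 13 of 13 H2B, 7 of 7 H3 and 6 of 6 H1 windows and in 3 of 11 H4 windows, against 37.4% of all 32851 promoter windows of the same length. The octamer ATTTGCAT, known from H2B promoters as a site for Pou2f1, was found in 7 of 17 H2A and 7 of 13 H2B windows and in no H1, H3 or H4 window, against 1.74% of all windows. Windows of head-to-head neighbours share bases, so 1 match can be counted in both classes, as the octamer is in H2ac12 and H2bc12. TATAAA was found in 11 of 17 H2A, 7 of 13 H2B, 2 of 7 H3, 7 of 11 H4 and 4 of 6 H1 windows, against 13.6% of all windows. Matches of different motifs shared letters in 0 of 54 histone windows and in 48 of all 32851 windows.

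Levels below are background-corrected, quantile-normalized log2 intensities, and changes are differences of group means on that scale with the standard error (SE) from a limma fit to all 19 arrays; a probe is called where the p-value adjusted over all 21083 probes was under 0.05. The mean deposited intensity per array was 123.6 to 297.6, and 32.1% to 42.3% of probes were detected; the number of arrays limits the precision. All 12 skeletal muscle markers were detected in every group. Arrays differed in brightness, with a mean intensity of 229 ± 37.7 in ischemic muscle after anti-miR-210 and 154 ± 28.6 in ischemic muscle after scramble, 204 ± 24.2 and 226 ± 16.2 in non-ischemic muscle after anti-miR-210 and after scramble, and 253 ± 43.0 in untreated muscle (SD, n = 4, 4, 4, 4 and 3). Liver transcripts were present on 4 arrays: all 9 liver markers tested were detected on scramble non-ischemic replicate 1 and on untreated replicates 1, 2 and 3, with a log2 summed level of 11.83 there on the first and 12.30, 14.30 and 15.86 on the others, against 7.50 to 9.81 elsewhere.

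In ischemic muscle the H2A genes of the HIST1 cluster rose while H2B and H4 genes fell. After anti-miR-210, 14 histone probes rose, 35 fell and 14 were not called; after scramble, 15 rose, 34 fell and 14 were not called. That is 77.8% called in each comparison, beside 48.5% of all probes after anti-miR-210 (23.8% higher, 24.7% lower) and 48.9% after scramble (23.6% higher, 25.3% lower). Groups did not overlap for 45 of the 63 probes after anti-miR-210 and 49 after scramble, beside 41.9% and 45.8% of all probes. The median change over all probes was -0.01 after anti-miR-210 and -0.03 after scramble. Of the 10 highest changes among all probes, 5 were histone probes in each comparison, as were 9 of the 50 highest, whereas the 100 lowest held 2. The filter admitted 6 probes through ischemic arrays with fewer than 3 detections on other arrays, 5 of them H2A. It admitted 3 through non-ischemic or untreated arrays with fewer than 3 detections on ischemic arrays. Among the 52 probes with at least 3 detections on both sides, 12 rose and 34 fell after anti-miR-210, and 13 rose and 33 fell after scramble. The shares, ranks and counts without overlap above include all 63 probes.

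**Figure D1:**
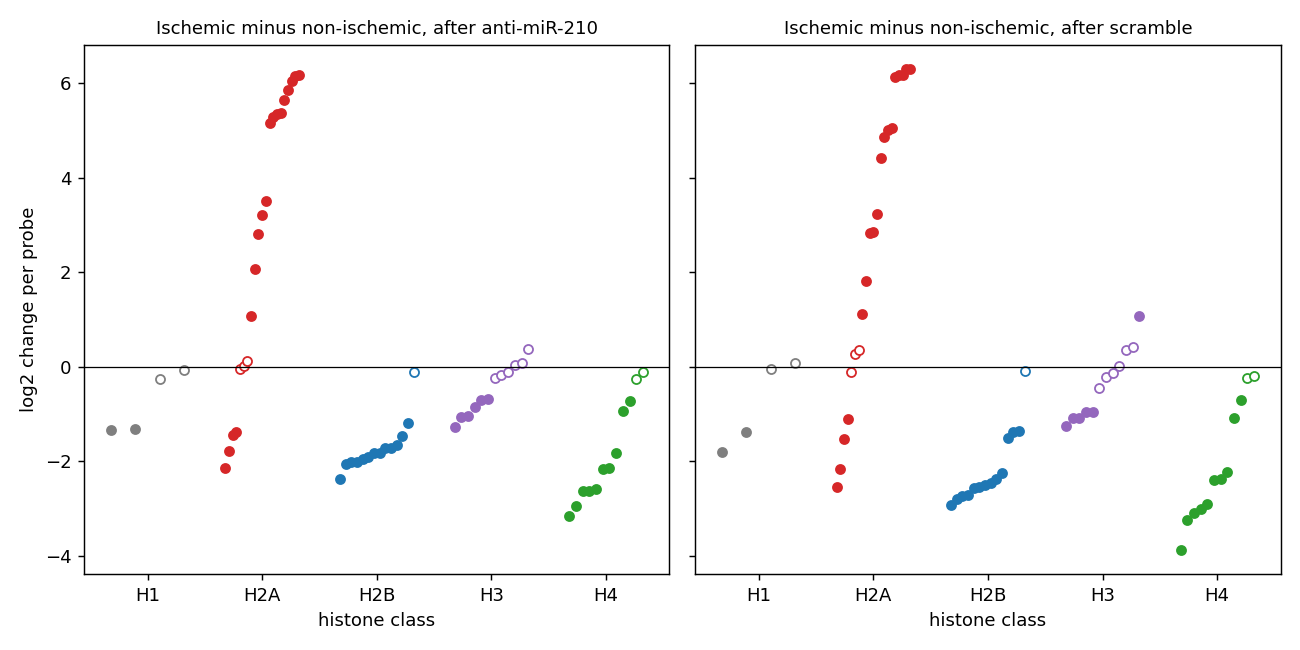
Change of each tested histone probe in ischemic against non-ischemic muscle (log2, vertical axis) by histone class, after anti-miR-210 on the left and after scramble on the right; filled points passed the adjusted p of 0.05. In both panels 14 H2A probes rose and 4 fell, and the called H2B, H4 and H1 probes all lie below 0.

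H2A, the partner of H2B in the nucleosome, gave 14 higher, 4 lower and 3 uncalled probes in each comparison. The median change of the 21 probes was 3.21 after anti-miR-210 and 2.86 after scramble, or 3.11 and 2.84 with probes that were undetected on one side set at their bound. All 12 called HIST1 probes, under 8 gene names, rose in both comparisons. Of these, the H2ac11 probe and probe ILMN_1246108 of H2ac12 passed the detection filter through ischemic arrays, so their direction adds nothing. Among the 16 H2A probes with at least 3 detections on both sides, 12 rose and 4 fell in each comparison. The HIST2 probes were mixed, with 2 higher and 4 lower of 7. The median H2A level per array lay between 9.43 and 10.39 on all 8 ischemic arrays, against 5.21 to 6.18 on the 11 others.

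H2ac22 (HIST1H2AN), a copy of the canonical H2A gene, had the highest histone change after scramble. Its level was 10.38, 10.27, 10.39 and 11.18 in ischemic muscle after anti-miR-210 and 11.13, 11.24, 11.62 and 11.54 in ischemic muscle after scramble. It was 5.22, 4.54, 4.31 and 4.70 in non-ischemic muscle after anti-miR-210, 5.18, 5.58, 5.08 and 4.46 in non-ischemic muscle after scramble, and 5.46, 4.79 and 5.36 in untreated muscle. Every ischemic array lay well above every other array, and replicate 4 after anti-miR-210 stood with the scramble arrays, above its own group. The change was 5.86 ± 0.25 after anti-miR-210 (SE, a 58.2-fold rise, adjusted p = 2.93e-12) and 6.31 ± 0.25 after scramble (79.2-fold, adjusted p = 2.19e-12).

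H2ac23 (HIST1H2AO), another copy of the canonical gene, also ranked among the 10 highest changes. It measured 13.18, 13.24, 13.18 and 13.59 in ischemic muscle after anti-miR-210 and 13.40, 13.43, 13.57 and 13.48 in ischemic muscle after scramble. The non-ischemic values were 7.75, 6.47, 6.85 and 7.52 after anti-miR-210 and 7.36, 7.78, 6.76 and 6.77 after scramble, and untreated muscle gave 7.52, 6.66 and 8.06. The ischemic arrays were tightly grouped and the other 11 arrays more spread, with no overlap. The change was 6.15 ± 0.29 after anti-miR-210 and 6.30 ± 0.29 after scramble (SE; adjusted p = 9.05e-12 and 8.40e-12).

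H2ac7 (HIST1H2AD) is the H2A partner of H2bc7 and had 2 tested probes. The probe with the higher change read 12.61, 12.73, 12.75 and 13.40 in ischemic muscle after anti-miR-210 and 13.07, 12.82, 13.07 and 13.05 in ischemic muscle after scramble. It read 7.38, 5.90, 6.55 and 6.99 in non-ischemic muscle after anti-miR-210, 6.84, 7.37, 6.66 and 6.45 in non-ischemic muscle after scramble, and 7.31, 6.30 and 7.42 in untreated muscle. No ischemic array came near a non-ischemic or untreated one. This probe changed by 6.17 ± 0.29 in both comparisons (adjusted p = 8.48e-12 after anti-miR-210 and 9.99e-12 after scramble), and the other probe by 5.38 ± 0.24 after anti-miR-210 and 5.05 ± 0.24 after scramble.

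The other HIST1 H2A genes that rose were H2ac10, H2ac11, H2ac12, H2ac13 and H2ac15. H2ac15 (HIST1H2AK) changed by 5.30 ± 0.25 after anti-miR-210 and 4.86 ± 0.25 after scramble. H2ac12 (HIST1H2AH) rose in both its probes, by 5.16 and 5.35 after anti-miR-210 and by 4.42 and 5.01 after scramble; the first of these was undetected on all 4 non-ischemic arrays after anti-miR-210, where it was at least 29.8-fold higher in ischemic muscle. H2ac11 (HIST1H2AG) was undetected on all 8 non-ischemic arrays and was at least 8.65-fold higher in ischemic muscle after anti-miR-210 and at least 5.78-fold higher after scramble. H2ac10 (HIST1H2AF) and H2ac13 (HIST1H2AI) rose in both probes but by unequal amounts: 5.64 and 2.07 for H2ac10 and 6.06 and 2.81 for H2ac13 after anti-miR-210, and 6.16 and 1.82 for H2ac10 and 6.14 and 2.84 for H2ac13 after scramble. Only H2ac4 and H2ac8 among the tested HIST1 H2A genes were not called, at 0.02 and 0.13 after anti-miR-210 and 0.27 and 0.36 after scramble.

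The HIST2 H2A genes differed from this. H2ac18 (HIST2H2AA1) fell in 2 of its 3 probes, with changes of -1.45 and -1.38 after anti-miR-210 and -1.53 and -1.11 after scramble, and H2ac19 (HIST2H2AA2) changed by -1.78 ± 0.18 after anti-miR-210 and -2.17 ± 0.18 after scramble. H2ac21 (HIST2H2AB) rose by 1.07 ± 0.25 after anti-miR-210 and 1.11 ± 0.25 after scramble. H2ac20 (HIST2H2AC), had probes that disagreed: probe ILMN_1218380 rose by 3.21 ± 0.12 after anti-miR-210 and 3.23 ± 0.12 after scramble, whereas probe ILMN_1254276 fell. That second probe read 5.42, 5.80, 6.29 and 5.41 in ischemic muscle after anti-miR-210 and 5.86, 6.02, 4.93 and 5.57 in ischemic muscle after scramble. It read 7.46, 7.72, 8.29 and 8.00 in non-ischemic muscle after anti-miR-210, 8.19, 8.08, 7.79 and 8.53 in non-ischemic muscle after scramble, and 8.61, 8.28 and 7.51 in untreated muscle. All 8 ischemic arrays were below all others, and the change was -2.14 ± 0.27 after anti-miR-210 and -2.55 ± 0.27 after scramble (adjusted p = 2.79e-06 and 3.22e-07).

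**Figure D2:**
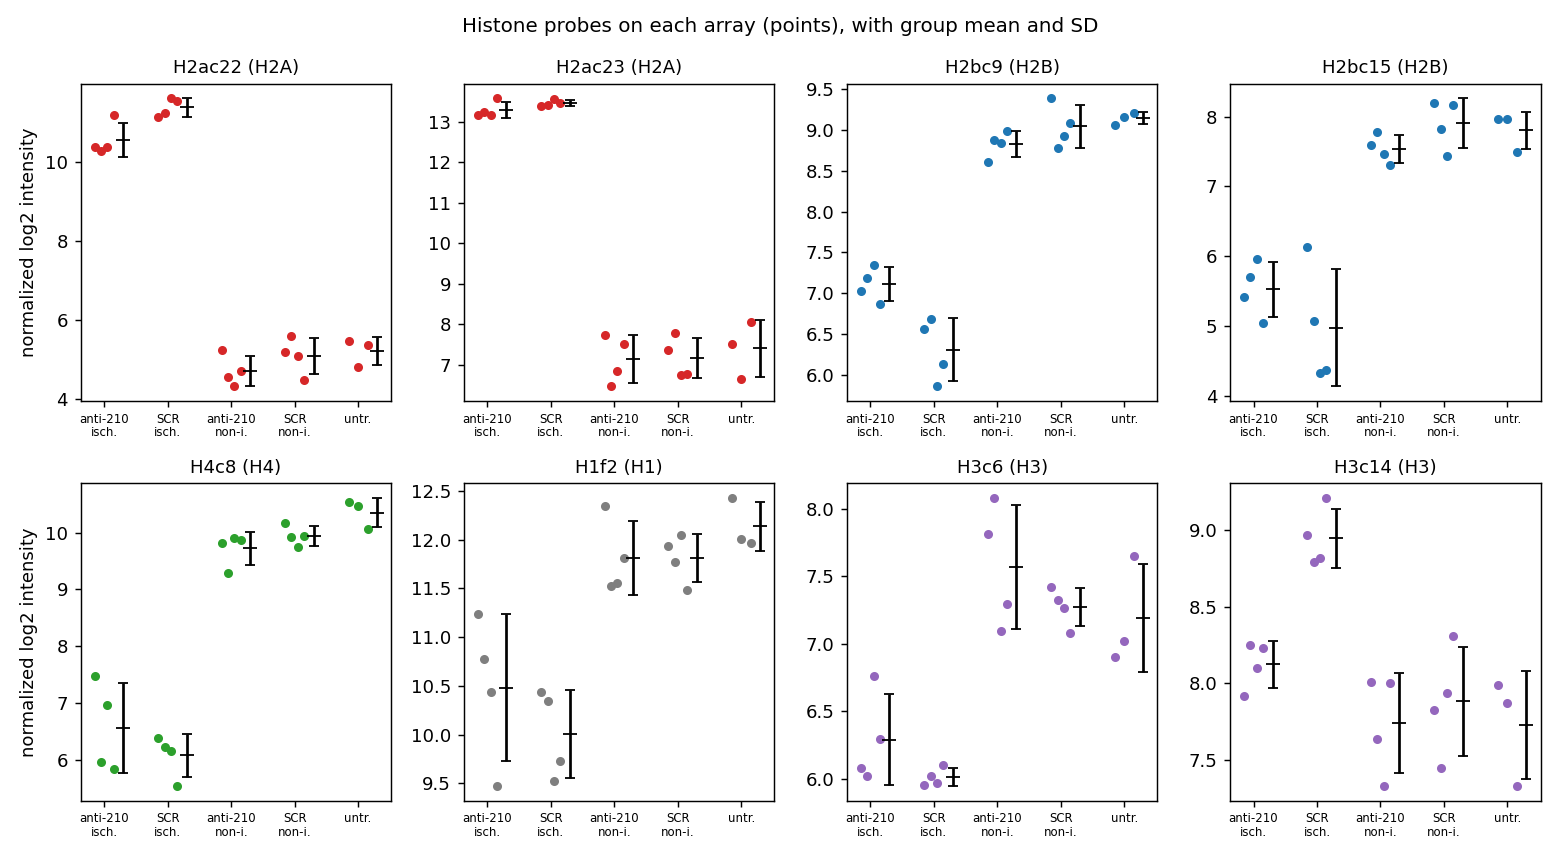
Normalized log2 intensity of 8 histone probes on each of the 19 arrays (points), with the group mean and SD beside them; groups from left to right are ischemic after anti-miR-210 (anti-210) and after scramble (SCR), non-ischemic after anti-miR-210 and after scramble, and untreated. The ischemic arrays stand above the others for H2ac22 and H2ac23 and below them for H2bc9, H2bc15, H4c8 and H3c6; the probe of H3c14 is ILMN_3136540 and that of H1f2 is ILMN_2855315.

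H2B genes, whose products pair with H2A, fell. Of 14 probes, 13 were lower and 1 was not called in each comparison, with a median change of -1.83 after anti-miR-210 and -2.48 after scramble. The median H2B level per array was 5.51 to 6.43 on ischemic arrays, against 7.93 to 8.71 on the others. The 13 lower probes were of H2bc4, H2bc6, H2bc7, H2bc9, H2bc11, H2bc12, H2bc14, H2bc15 and H2bc21.

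H2bc15 (HIST1H2BN), the partner of H2ac15, had the lowest change of the H2B probes after scramble. Its level was 5.42, 5.70, 5.96 and 5.04 in ischemic muscle after anti-miR-210 and 6.13, 5.08, 4.33 and 4.37 in ischemic muscle after scramble. It was 7.60, 7.78, 7.47 and 7.31 in non-ischemic muscle after anti-miR-210, 8.20, 7.82, 7.43 and 8.17 in non-ischemic muscle after scramble, and 7.96, 7.96 and 7.50 in untreated muscle. The scramble ischemic arrays were widely spread, and all ischemic arrays still lay below the rest. The change was -2.01 ± 0.31 after anti-miR-210 and -2.93 ± 0.31 after scramble (SE; adjusted p = 2.31e-05 and 2.73e-07).

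Among the smaller falls, H2bc21 (HIST2H2BE), a gene known for polyadenylated expression outside the cell cycle, read 4.96, 4.61, 5.03 and 5.37 in ischemic muscle after anti-miR-210 and 5.60, 5.08, 5.11 and 5.39 in ischemic muscle after scramble with probe ILMN_1231066. The same probe read 5.57, 6.62, 6.61 and 7.03 in non-ischemic muscle after anti-miR-210, 6.57, 6.45, 7.02 and 6.57 in non-ischemic muscle after scramble, and 7.32, 7.05 and 6.01 in untreated muscle. Groups given the same oligonucleotide did not overlap, although the lowest non-ischemic array after anti-miR-210 was below the highest ischemic array after scramble. The change was -1.46 ± 0.29 after anti-miR-210 and -1.36 ± 0.29 after scramble, and the other H2bc21 probe gave -1.19 and -1.50. The call of ILMN_1231066 after scramble was lost with array brightness as a covariate (-0.87, adjusted p = 0.102).

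H2bc6 (HIST1H2BE) fell in all 3 probes. Probe ILMN_2676243, the least changed after scramble, read 4.47, 4.60, 4.49 and 4.78 in ischemic muscle after anti-miR-210 and 4.70, 4.39, 4.72 and 5.20 in ischemic muscle after scramble, against 5.92, 7.05, 5.98 and 6.28 in non-ischemic muscle after anti-miR-210, 6.67, 5.72, 6.31 and 5.86 in non-ischemic muscle after scramble, and 5.88, 5.65 and 6.21 in untreated muscle. Its ischemic values were close to the floor of detection (4.40 to 4.65 over arrays), and all were below the other 11. The 3 probes changed by -1.72 to -2.05 after anti-miR-210 and by -1.39 to -2.79 after scramble.

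The uncalled H2B probe was ILMN_2677231 of H2bc4 (HIST1H2BC). It read 4.34, 4.19, 4.18 and 4.28 in ischemic muscle after anti-miR-210 and 4.65, 4.61, 4.16 and 4.30 in ischemic muscle after scramble, against 4.25, 4.26, 4.52 and 4.39 in non-ischemic muscle after anti-miR-210, 4.44, 4.43, 4.81 and 4.42 in non-ischemic muscle after scramble, and 5.13, 4.43 and 4.42 in untreated muscle. Nearly all values were at the floor and the groups overlapped. The other H2bc4 probe changed by -2.37 ± 0.21 after anti-miR-210 and -2.54 ± 0.21 after scramble.

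In the 4 head-to-head pairs found among genes with a promoter window, the H2A probes were called higher and the H2B probes lower in both comparisons. Histone copies are near-identical and the probe sequences were not used, so which copy each probe reads cannot be told. Opposite movement of the neighbouring genes themselves is therefore not shown. The tested genes H2bc4 and H2bc21 had no window and were not searched for partners; H2bc21 lies next to H2ac20 in the RefSeq gene table, and the probes of H2ac20 moved in opposite directions. The starts lie 164 bases apart in H2ac15 and H2bc15, 178 in H2ac12 and H2bc12, 249 in H2ac11 and H2bc11 and 174 in H2ac7 and H2bc7. H2bc12 changed by -1.95 and -2.01 in its 2 probes after anti-miR-210 and by -2.71 and -2.24 after scramble. H2bc11 changed by -1.83 ± 0.17 after anti-miR-210 and -2.56 ± 0.17 after scramble, and H2bc7 by -1.65 ± 0.20 and -2.51 ± 0.20. The H2ac11 probe and probe ILMN_1246108 of H2ac12 passed the detection filter through ischemic arrays, so their direction adds nothing to the pattern. H2ac11 had no other probe, so its pair with H2bc11 adds nothing either. The other H2A probes of these pairs changed by 4.86 to 6.17, and the H2B probes by -1.65 to -2.93.

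**Figure D3:**
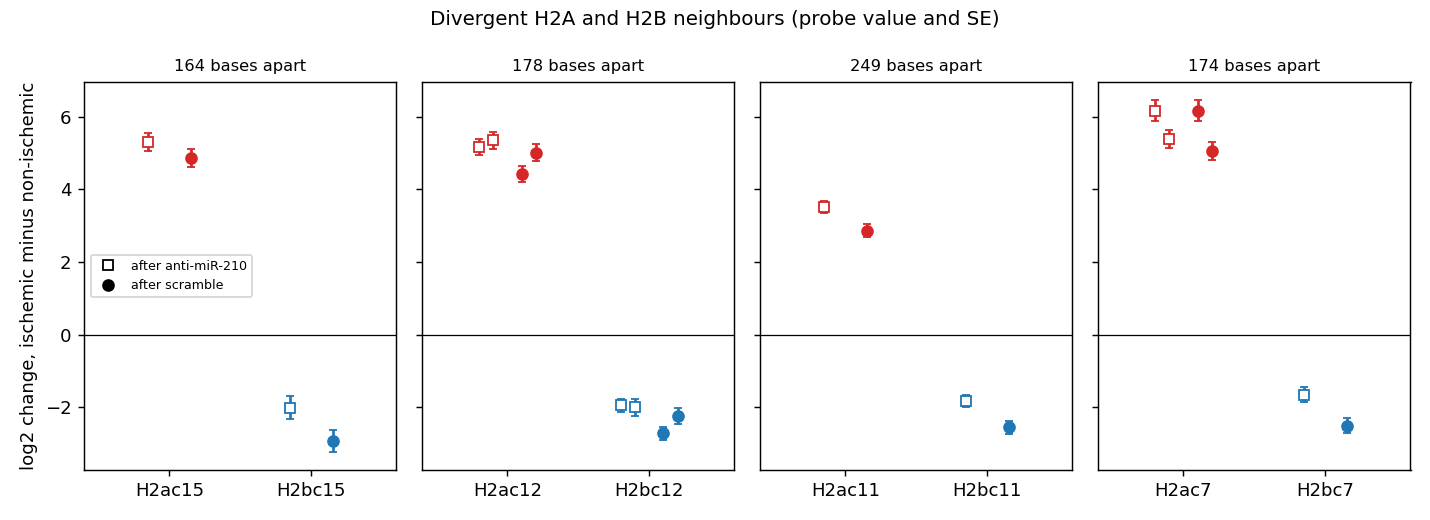
Change in ischemic against non-ischemic muscle (log2, vertical axis, with SE) for the tested probes of 4 pairs of neighbouring H2A and H2B genes; open squares are after anti-miR-210 and filled circles after scramble, and each panel gives the bases between the gene starts. Every H2A probe lies above 0 and every H2B probe below 0. The H2ac11 probe and probe ILMN_1246108 of H2ac12 passed the detection filter through ischemic arrays, so their direction adds nothing.

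H4, the partner of H3 in the tetramer, fell as H2B did. Of 12 probes, 10 were lower and 2 were not called in each comparison. The median change was -2.16 after anti-miR-210 and -2.39 after scramble. Among the lower probes, ILMN_2525570 of H4c12 passed the detection filter through non-ischemic and untreated arrays, so its direction adds nothing. Of the 10 H4 probes with at least 3 detections on both sides, 9 fell in each comparison. H4c8 (HIST1H4H) had a level of 7.48, 5.96, 6.96 and 5.83 in ischemic muscle after anti-miR-210 and 6.38, 6.23, 6.15 and 5.53 in ischemic muscle after scramble. It was 9.82, 9.29, 9.91 and 9.88 in non-ischemic muscle after anti-miR-210, 10.17, 9.93, 9.74 and 9.95 in non-ischemic muscle after scramble, and 10.54, 10.47 and 10.06 in untreated muscle. The ischemic arrays after anti-miR-210 were split between higher and lower values, and no ischemic array reached the others. The change was -3.17 ± 0.29 after anti-miR-210 and -3.88 ± 0.29 after scramble (SE, 8.97-fold and 14.7-fold lower, adjusted p = 4.92e-08 and 3.67e-09).

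The remaining HIST1 H4 genes fell to differing extents. H4c9 changed by -2.62 ± 0.21 after anti-miR-210 and -3.09 ± 0.21 after scramble, H4c1 by -2.59 ± 0.21 and -3.01 ± 0.21, and H4c11 by -2.62 ± 0.20 and -2.91 ± 0.20. Both probes of H4c17 fell, with changes of -1.83 and -2.15 after anti-miR-210 and -2.22 and -2.37 after scramble. The other H4c12 probe changed by -2.16 ± 0.23 after anti-miR-210 and -2.40 ± 0.23 after scramble.

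The dim probe ILMN_2525570 of H4c12 (HIST1H4K) read 4.38, 4.23, 4.48 and 4.16 in ischemic muscle after anti-miR-210 and 4.37, 4.38, 4.2 and 4.24 in ischemic muscle after scramble, against 4.78, 5.19, 5.09 and 5.06 in non-ischemic muscle after anti-miR-210, 5.12, 4.45, 5.28 and 5.14 in non-ischemic muscle after scramble, and 5.89, 5.23 and 5.00 in untreated muscle. Ischemic values lay at the floor and below those of the non-ischemic group given the same oligonucleotide, although ischemic replicate 3 after anti-miR-210 was above non-ischemic replicate 2 after scramble. It was undetected on all 4 scramble ischemic arrays and was at least 1.36-fold lower there, with an adjusted p of 0.00408; the change after anti-miR-210 was -0.72 ± 0.19. The call was lost after scramble with array brightness as a covariate (-0.25, adjusted p = 0.459) and after anti-miR-210 with median scaling (-0.51, adjusted p = 0.0757).

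Neither ILMN_2525565 of H4c6 (HIST1H4F) nor H4c3 (HIST1H4C) was called. The H4c6 probe read 4.46, 4.32, 4.44 and 4.21 in ischemic muscle after anti-miR-210 and 4.74, 4.38, 4.23 and 4.25 in ischemic muscle after scramble, against 4.90, 4.63, 4.34 and 4.59 in non-ischemic muscle after anti-miR-210, 4.57, 4.66, 4.75 and 4.59 in non-ischemic muscle after scramble, and 5.67, 4.31 and 4.72 in untreated muscle. H4c3 read 4.23, 4.2, 4.40 and 4.25 in ischemic muscle after anti-miR-210 and 4.35, 4.52, 4.32 and 4.24 in ischemic muscle after scramble, against 4.35, 4.63, 4.26 and 4.26 in non-ischemic muscle after anti-miR-210, 4.39, 4.26, 4.79 and 4.74 in non-ischemic muscle after scramble, and 4.38, 4.40 and 4.46 in untreated muscle. Both were at or near the floor with overlapping groups. The other H4c6 probes changed by -2.94 and -0.94 after anti-miR-210 and by -3.24 and -1.09 after scramble; the smaller change was not called with median scaling after anti-miR-210 (-0.56) or with brightness as a covariate after scramble (-0.62).

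H3 genes changed less, and their probes were called at a share near that of all probes. Of 12 probes, 0 were higher and 6 lower after anti-miR-210, and 1 was higher and 5 lower after scramble. That is 50% called in each comparison, beside 48.5% of all probes after anti-miR-210 and 48.9% after scramble. The median H3 change was -0.46 after anti-miR-210 and -0.33 after scramble. With arrays scaled to their medians, 2 H3 probes were higher and 1 lower after anti-miR-210, and H3c6 was among the calls lost (-0.61, adjusted p = 0.0631). H3c6 (HIST1H3E) had the lowest change. It read 6.08, 6.02, 6.76 and 6.29 in ischemic muscle after anti-miR-210 and 5.95, 6.02, 5.97 and 6.10 in ischemic muscle after scramble. It read 7.81, 8.08, 7.09 and 7.29 in non-ischemic muscle after anti-miR-210, 7.42, 7.32, 7.26 and 7.08 in non-ischemic muscle after scramble, and 6.90, 7.02 and 7.65 in untreated muscle. All ischemic arrays were below the others. The change was -1.28 ± 0.21 after anti-miR-210 and -1.26 ± 0.21 after scramble (SE; adjusted p = 5.08e-05 and 5.62e-05).

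H3c14 (HIST2H3C1) held the only H3 probe that rose. Probe ILMN_3136540 read 7.92, 8.25, 8.10 and 8.23 in ischemic muscle after anti-miR-210 and 8.97, 8.79, 8.82 and 9.21 in ischemic muscle after scramble, against 8.01, 7.64, 7.33 and 8.00 in non-ischemic muscle after anti-miR-210, 7.83, 7.45, 7.94 and 8.31 in non-ischemic muscle after scramble, and 7.99, 7.87 and 7.33 in untreated muscle. Only the scramble ischemic arrays stood apart from the rest. The change was 0.38 ± 0.19 after anti-miR-210 (adjusted p = 0.116) and 1.07 ± 0.19 after scramble (adjusted p = 0.000135). In ischemic muscle the anti-miR-210 arrays differed from the scramble arrays by -0.82 with an adjusted p of 0.0504, which is not called, and the difference of the 2 responses was not called either. The other H3c14 probe fell, with changes of -1.07 ± 0.32 after anti-miR-210 and -0.96 ± 0.32 after scramble. That fall was lost under 5 of 21 alternatives after scramble, among them leaving out scramble ischemic replicate 4 (-0.89, adjusted p = 0.0509), and under 1 after anti-miR-210; the rise of ILMN_3136540 after scramble was lost with median scaling (0.38, adjusted p = 0.372).

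H3c13 (HIST2H3B) and probe ILMN_2592253 of H3c10 (HIST1H3H) were not called in ischemia. H3c13 read 8.32, 7.82, 8.09 and 8.22 in ischemic muscle after anti-miR-210 and 9.11, 8.58, 7.95 and 8.83 in ischemic muscle after scramble, against 8.99, 8.14, 7.96 and 8.05 in non-ischemic muscle after anti-miR-210, 8.25, 8.05, 8.13 and 8.33 in non-ischemic muscle after scramble, and 8.02, 8.21 and 8.25 in untreated muscle. The H3c10 probe read 7.86, 7.55, 7.84 and 7.70 in ischemic muscle after anti-miR-210 and 8.35, 8.14, 8.01 and 8.43 in ischemic muscle after scramble, against 7.99, 7.89, 7.31 and 7.58 in non-ischemic muscle after anti-miR-210, 8.08, 7.80, 7.91 and 7.72 in non-ischemic muscle after scramble, and 7.89, 7.84 and 8.03 in untreated muscle. Their groups overlapped, and the changes were -0.17 ± 0.23 and 0.05 ± 0.15 after anti-miR-210 and 0.43 ± 0.23 and 0.35 ± 0.15 after scramble. H3c4 fell, with changes of -0.69 after anti-miR-210 and -0.96 after scramble, although its value after anti-miR-210 turned to 0.031 when arrays were scaled to their medians.

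H1, the linker histone, was represented by H1f2, H1f3 and H1f5. H1f2 (HIST1H1C), a linker histone gene known to be expressed also in cells that do not divide, fell in both probes. Probe ILMN_2855315 read 11.24, 10.78, 10.44 and 9.47 in ischemic muscle after anti-miR-210 and 10.44, 10.34, 9.52 and 9.73 in ischemic muscle after scramble, against 12.35, 11.52, 11.56 and 11.81 in non-ischemic muscle after anti-miR-210, 11.94, 11.77, 12.05 and 11.48 in non-ischemic muscle after scramble, and 12.43, 12.01 and 11.97 in untreated muscle. Ischemic arrays were lower and more spread than the rest, with no overlap. It changed by -1.33 ± 0.30 after anti-miR-210 and -1.80 ± 0.30 after scramble (SE; adjusted p = 0.00111 and 5.46e-05).

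Probe ILMN_2774537 of H1f2 read 11.45, 11.54, 9.91 and 9.55 in ischemic muscle after anti-miR-210 and 11.33, 10.32, 10.29 and 9.85 in ischemic muscle after scramble, against 11.95, 12.63, 11.72 and 11.37 in non-ischemic muscle after anti-miR-210, 12.16, 11.70, 12.11 and 11.37 in non-ischemic muscle after scramble, and 12.01, 12.42 and 11.57 in untreated muscle. Some ischemic arrays after anti-miR-210 overlapped their non-ischemic group. The change was -1.31 ± 0.41 after anti-miR-210 and -1.38 ± 0.41 after scramble (adjusted p = 0.0129 and 0.00863). The call after anti-miR-210 was lost without ischemic replicate 4 (adjusted p = 0.0591) or without non-ischemic replicate 2 of that oligonucleotide (adjusted p = 0.0530). It was also lost with median scaling (-1.20, adjusted p = 0.0593) and with array weights (-0.86, adjusted p = 0.0726). The call after scramble was lost with brightness as a covariate, at -0.97 (adjusted p = 0.238).

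H1f5 (HIST1H1B) and H1f3 (HIST1H1D), linker histones of dividing cells, stayed near the floor. H1f5 read 4.48, 4.48, 4.53 and 4.47 in ischemic muscle after anti-miR-210 and 4.49, 4.27, 5.11 and 4.42 in ischemic muscle after scramble, against 5.10, 4.54, 4.48 and 4.87 in non-ischemic muscle after anti-miR-210, 4.28, 4.40, 4.63 and 4.63 in non-ischemic muscle after scramble, and 4.77, 4.31 and 4.92 in untreated muscle. H1f3 read 4.40, 4.49, 4.41 and 4.43 in ischemic muscle after anti-miR-210 and 4.22, 4.24, 4.25 and 4.39 in ischemic muscle after scramble, against 4.28, 4.32, 4.47 and 4.97 in non-ischemic muscle after anti-miR-210, 4.17, 4.2, 4.27 and 4.61 in non-ischemic muscle after scramble, and 4.19, 4.50 and 4.29 in untreated muscle. No group of arrays stood apart for either gene, and a change was not detectable at this signal.

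Of the 17 genes with at least 2 tested probes, 10 had the same call for all of them in each comparison. Called probes went in opposite directions for 1 gene after anti-miR-210, H2ac20, and for 2 genes after scramble, H2ac20 and H3c14, where both H3c14 calls were lost under some alternatives. Most of the remaining disagreements pair a called probe with a dim one that was not called, as for H2ac18, H2bc4, H3c7 and H4c6; in H3c10 a probe with levels of 7.31 to 8.43 was not called either. Since histone copies are near-identical and the probe sequences were not used here, which transcript each probe reads cannot be told apart.

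**Figure D4:**
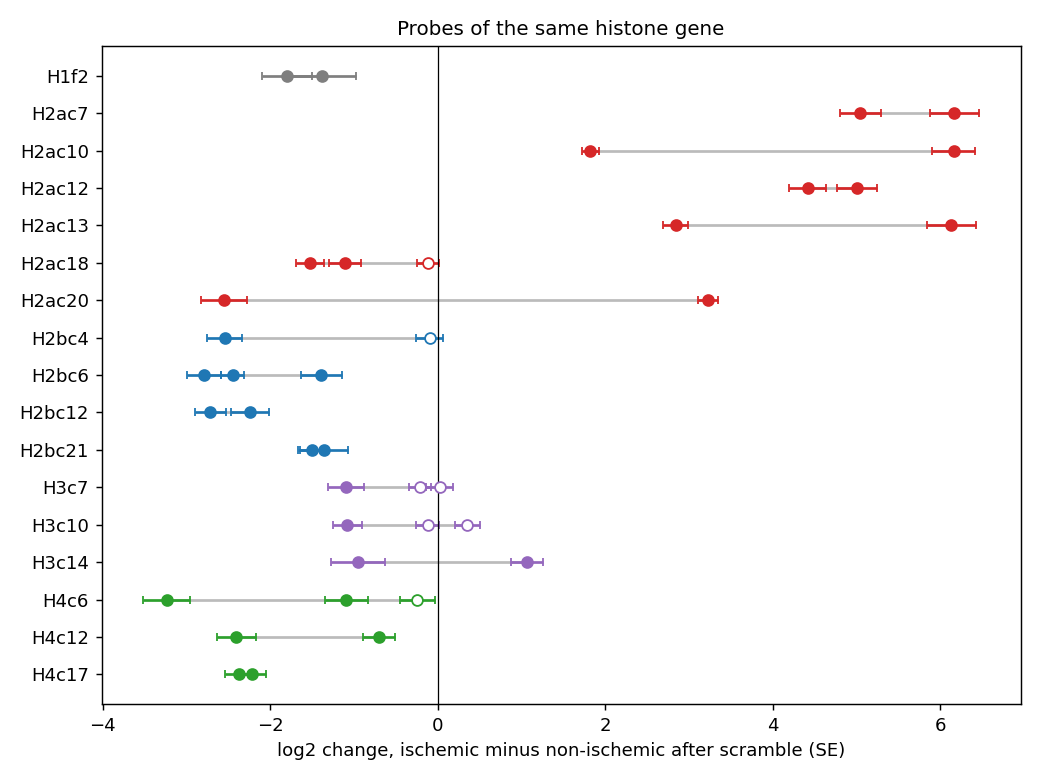
Change in ischemic against non-ischemic muscle after scramble (log2, horizontal axis, with SE) for the 17 histone genes with at least 2 tested probes; filled points were called, and colours mark the class. The probes of H2ac20 and H3c14 lie on opposite sides of 0.

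The comparison of anti-miR-210 with scramble asked whether blocking miR-210 alters these genes. In ischemic muscle 17 of the 63 histone probes had an unadjusted p under 0.05 by limma, beside 3374 of all 21083 probes. After adjustment 1 histone probe of 63 was called, beside 0.896% of all probes (0.228% higher, 0.669% lower). That probe was H2bc9 (HIST1H2BH), which read 7.03, 7.19, 7.35 and 6.87 in ischemic muscle after anti-miR-210 and 6.56, 6.69, 5.86 and 6.13 in ischemic muscle after scramble. Its non-ischemic values were 8.61, 8.88, 8.84 and 8.99 after anti-miR-210 and 9.39, 8.78, 8.92 and 9.09 after scramble, and untreated muscle gave 9.06, 9.16 and 9.21. The ischemic groups did not overlap each other, and both lay below all non-ischemic arrays. H2bc9 was 0.80 ± 0.18 higher after anti-miR-210 (adjusted p = 0.0425), in 4 of 4 arrays. With the array's brightness as a covariate the change was 0.35 (adjusted p = 0.82), and the call was also lost without scramble ischemic replicate 3 or 4 and without anti-miR-210 ischemic replicate 1, 2 or 3, with values of 0.65 to 0.83. In all the call was lost under 13 of 22 alternatives. Among these were no background correction (0.49, adjusted p = 0.0607) and the authors' quantile-normalized values (0.53, adjusted p = 0.0508).

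The difference between the ischemia responses after anti-miR-210 and after scramble was called by limma for 0 histone probes, beside 0.0142% of all probes. An unadjusted p under 0.05 was reached by 8 histone probes, beside 1774 of all 21083 probes. The smallest adjusted p of a histone probe was 0.336. The smaller median fall of H2B probes after anti-miR-210 given above is therefore not shown to differ from that after scramble. In non-ischemic muscle 0 histone probes were called between anti-miR-210 and scramble, beside 0.00474% of all probes. There 1 histone probe had an unadjusted p under 0.05, beside 1420 of all 21083 probes.

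Against untreated muscle, non-ischemic muscle after scramble gave 0 called histone probes by limma, beside 2.64% of all probes (0.939% higher, 1.7% lower). An unadjusted p under 0.05 was reached there by 3 histone probes, beside 3041 of all 21083 probes. Non-ischemic muscle after anti-miR-210 gave 1 called histone probe, beside 5.54% of all probes (2.6% higher, 2.93% lower). In that comparison 8 histone probes had an unadjusted p under 0.05, beside 4109 of all 21083 probes. The called probe was ILMN_2698519 of H3c10, which read 5.66, 6.05, 5.33 and 5.74 in non-ischemic muscle after anti-miR-210, 5.67, 5.58, 5.41 and 5.31 in non-ischemic muscle after scramble, and 5.12, 4.89 and 4.98 in untreated muscle. It read 4.29, 4.82, 4.82 and 4.68 in ischemic muscle after anti-miR-210 and 4.86, 4.21, 4.21 and 4.35 in ischemic muscle after scramble. Untreated values lay between the ischemic and the non-ischemic ones. The probe was 0.70 ± 0.19 higher after anti-miR-210 than in untreated muscle (adjusted p = 0.0355). The call was lost without untreated replicate 2 or 3 and without anti-miR-210 non-ischemic replicate 1, 2 or 4, and all 3 untreated arrays carry liver transcripts. In all it was lost under 11 of 20 alternatives, among them median scaling (0.36, adjusted p = 0.498) and cyclic loess (0.63, adjusted p = 0.0637).

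Genes that act in S phase rose in ischemic muscle together with the H2A genes. Of 26 tested S phase and DNA replication genes, 22 rose and 0 fell after anti-miR-210 and 23 rose and 0 fell after scramble, with median changes of 1.82 and 1.84. Over all probes, 23.8% were called higher after anti-miR-210 and 23.6% after scramble. Lig1, which joins Okazaki fragments, changed by 3.16 ± 0.11 after anti-miR-210 and 3.03 ± 0.11 after scramble, Mcm5, a subunit of the replicative helicase, by 4.51 ± 0.24 and 4.18 ± 0.24, and E2f1, a transcription factor of the G1/S transition, by 3.40 ± 0.20 and 3.90 ± 0.20. Of 12 genes of G2 and M phase, 11 rose and 0 fell in each comparison, with medians of 3.17 after anti-miR-210 and 3.33 after scramble; Prc1, a spindle midzone protein, changed by 5.47 ± 0.17 and 5.55 ± 0.17, and Birc5, a subunit of the chromosomal passenger complex, by 4.03 ± 0.14 and 4.31 ± 0.14. Nusap1, a spindle-associated protein, changed by 2.93 ± 0.13 after anti-miR-210 and 3.67 ± 0.13 after scramble. In ischemic muscle it was lower after anti-miR-210 than after scramble by limma (-0.66, adjusted p = 0.0269), beside 0.669% of all probes called lower. No other gene of the S phase or G2 and M lists was called there, and the difference of the ischemia responses was called for none. The summed S phase level (log2) was 12.17 to 12.72 in ischemic muscle after anti-miR-210 and 12.41 to 12.80 after scramble, against 10.16 to 10.23 and 10.13 to 10.36 in the non-ischemic groups and 10.16 to 10.96 in untreated muscle.

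The histone genes that do not depend on replication were mixed. Of 10 tested, 5 rose and 2 fell after anti-miR-210, and 5 rose and 0 fell after scramble, with a median of 0.56 in each. Beside this, 48.5% of all probes were called after anti-miR-210 (23.8% higher, 24.7% lower). After scramble it was 48.9% of all probes (23.6% higher, 25.3% lower), so the count there is near that share. Cenpa, the centromeric H3, changed by 4.04 ± 0.17 after anti-miR-210 and 3.59 ± 0.17 after scramble, and H3f3b, a gene for the replacement histone H3.3, by 1.11 ± 0.14 and 1.06 ± 0.14. H2ax, the variant phosphorylated at DNA breaks, changed by 0.73 ± 0.16 and 0.76 ± 0.16. H1f0, the linker histone of quiescent cells, and H2az2 fell after anti-miR-210, with changes of -1.16 ± 0.31 and -0.90 ± 0.35, and were not called after scramble at -0.57 and -0.73.

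Of the genes for histone gene transcription and mRNA 3′ end processing, 12 were tested and most were not called: 2 rose and 0 fell after anti-miR-210, and 2 rose and 1 fell after scramble, with medians of 0.10 and 0.02. The share called over all probes was 48.5% after anti-miR-210 and 48.9% after scramble. Cstf2, a cleavage stimulation factor subunit, changed by 0.99 ± 0.15 after anti-miR-210 and 1.16 ± 0.15 after scramble, and Lsm10, a U7 snRNP protein, by 0.24 ± 0.15, which was not called, and 0.56 ± 0.15. Nfyb, a subunit of the factor that binds CCAAT, changed by -0.49 ± 0.22, which was not called, and -0.89 ± 0.22. Npat, Slbp, Lsm11, Zfp473 and Cpsf3 did not pass the detection filter, so the coactivator and the stem-loop binding protein gave no value.

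Among 19 histone chaperones and related genes, 9 rose and 3 fell in each comparison, with medians of 0.45 after anti-miR-210 and 0.42 after scramble. Over all probes, 23.8% were called higher and 24.7% lower after anti-miR-210, and 23.6% higher and 25.3% lower after scramble. Chaf1a and Chaf1b, subunits of the complex that deposits H3 and H4 behind the replication fork, changed by 2.44 ± 0.21 and 2.76 ± 0.25 after anti-miR-210 and by 2.74 ± 0.21 and 3.10 ± 0.25 after scramble. Npm1 changed by 1.34 ± 0.14 after anti-miR-210 and 1.24 ± 0.14 after scramble. Asf1a, an H3 and H4 chaperone, and Hira, which deposits H3.3, were among those that fell, with changes of -1.18 ± 0.17 and -0.77 ± 0.23 after anti-miR-210 and -0.93 ± 0.17 and -0.58 ± 0.23 after scramble. Rbbp7, a histone-binding subunit of several chromatin complexes, fell after scramble (-1.22 ± 0.28) and was not called after anti-miR-210 (-0.34 ± 0.28).

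**Figure D5:**
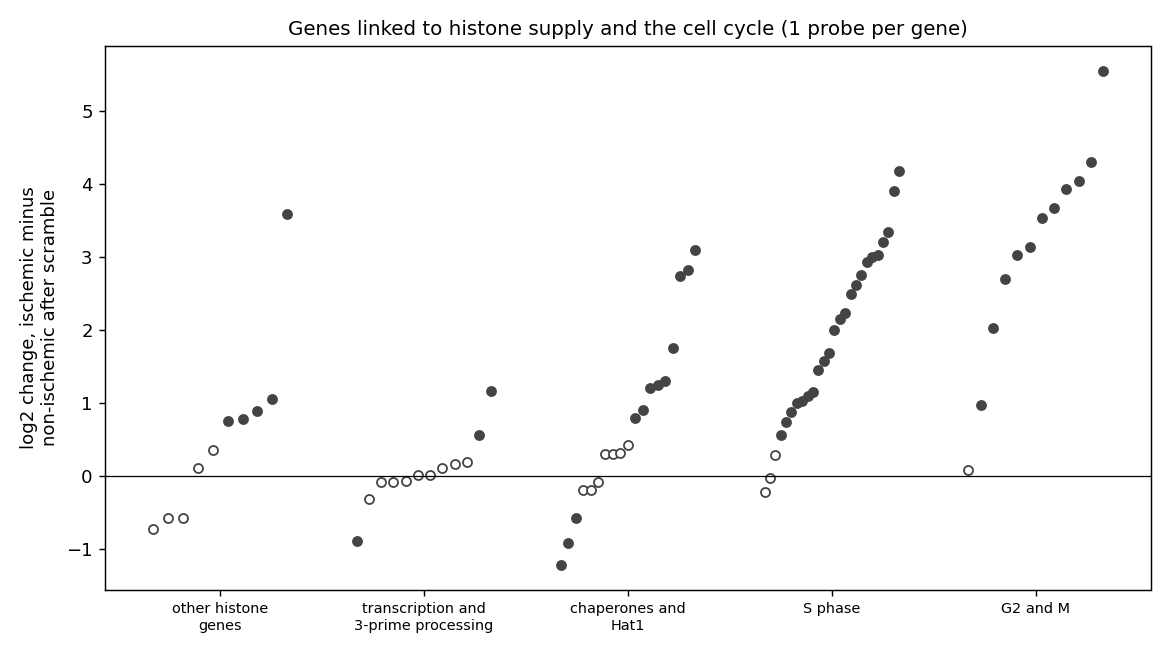
Change in ischemic against non-ischemic muscle after scramble (log2, vertical axis) of genes linked to histone supply and to the cell cycle, with 1 probe per gene; filled points were called. Most S phase and G2 and M genes lie above 0, while the transcription and 3′ processing genes cluster at 0.

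Many markers of other cells moved with the same comparison. All 13 monocyte and macrophage markers rose after anti-miR-210 and 12 of 13 after scramble, with medians of 3.59 and 3.35, and all 13 were detected in ischemic muscle after anti-miR-210, while 1 was detected on no scramble ischemic array. Their summed level (log2) was 14.11 to 15.02 in ischemic muscle after anti-miR-210 and 13.97 to 14.75 after scramble, against 10.52 to 10.87 in non-ischemic muscle after anti-miR-210, 10.53 to 11.25 in non-ischemic muscle after scramble and 11.32 to 11.96 in untreated muscle. Of 12 skeletal muscle markers, 4 fell and 1 rose after anti-miR-210 and 6 fell and 1 rose after scramble. Neutrophil markers rose in 5 of 7 after anti-miR-210 and 6 of 7 after scramble, fibroblast markers in 6 of 6 and 3 of 6, endothelial markers in 5 of 7 in each, satellite cell and myoblast markers in 3 of 6 in each, and lymphocyte markers in 3 of 6 and 1 of 6. Of 5 erythroid markers tested, 0 rose in either comparison, 0 fell after anti-miR-210 and 1 fell after scramble. Of all probes, 23.8% were called higher and 24.7% lower after anti-miR-210, and 23.6% higher and 25.3% lower after scramble. The part of these markers in the histone changes was not tested, and in whole muscle fewer cells of a type and less RNA per cell cannot be told apart.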

How the data were processed

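Each of 45281 probes had an average intensity per array, deposited without normalization per the file headers, and a deposited detection p-value. A further deposited table held the authors' quantile-normalized intensity of the same arrays, with a median of 84.6 in each column; its values correlated with those of the same array (Spearman) at 0.99997 or above, and it served as an alternative. The scanner software and build are not given in the sources used here. Labelling used an Ambion MessageAmp kit, per the labels' protocols. The 19 arrays were grouped by their labels, no columns went unmapped, no batch is labelled, and 0 array pairs were identical (highest correlation 0.992).

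Arrays were corrected and normalized with neqc (offset 16) in limma 3.58.1 under R 4.3.3. limma was fitted per probe to a mean for each of the 5 groups, with empirical Bayes moderation and Benjamini-Hochberg adjustment over 21083 probes in each of 7 comparisons. A probe with no detection in a whole group is given as a bound against the floor of detection. The code was tested on simulated data. Older gene names were updated through a RefSeq table on GRCm38.p6, from which promoters also came; motifs were searched on both strands. The files name no build, and no other RefSeq coordinates were used.

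The values named in every array are, for each class, the 3 highest changes and the lowest after scramble and all probes called in comparisons without ischemia as the contrast; genes of the other lists take the probe with the highest mean. The members and lists were chosen with earlier results of these data known. Alternatives were other background corrections, normalizations, offsets, filters, fits and omitted arrays. Figures used matplotlib 3.10.9 under Python 3.11.15.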

Additional observations from a re-analysis of the deposited data

Results flagged for a closer look

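Among the 22 probes given in every array, 88 groups of 4 arrays were examined for an array whose gap to its nearest neighbour exceeded Dixon's 95% critical share of the group's range, and 6 did; chance gives about 1 in 20. H2ac22 was 11.18 and H2ac23 13.59 on ischemic replicate 4 after anti-miR-210, where the other 3 arrays read 10.27 to 10.39 and 13.18 to 13.24. H2ac7 was 12.82 on ischemic replicate 2 after scramble, below the 13.05 to 13.07 of the others. H4c8 was 9.29 on non-ischemic replicate 2 after anti-miR-210, against 9.82 to 9.91. Near the floor, H2bc4 (ILMN_2677231) was 4.81 on non-ischemic replicate 3 after scramble, against 4.42 to 4.44, and H1f5 was 4.53 on ischemic replicate 3 after anti-miR-210, against 4.47 to 4.48.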

How the results depend on the processing

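Across 33 alternatives, 19 of them leaving out 1 array each, the direction of the H2A, H2B and H4 medians in ischemia held under every one fitted, and members called stayed within 33 to 50 after anti-miR-210 and 33 to 52 after scramble. Of 100 probe calls 83 were kept under every alternative; H3c4 after anti-miR-210 turned to 0.031 with median scaling. Median scaling moved the median of all probes to 0.22 after anti-miR-210 and -0.12 after scramble, and the share of higher among called probes to 77.5% and 31.2%, against 49.1% and 48.4%. For anti-miR-210 against scramble in ischemic muscle (1 member called), the count was 3 without background correction, 0 with cyclic loess, 29 with median scaling, 4 with offset 50, 0 with no filter, 2 with 1 probe per gene, 0 with only the groups compared, 0 with brightness as covariate, 6 with array weights, 3 with the authors' values, 0 without untreated replicates 2 and 3 and scramble non-ischemic replicate 1 (3 of the 4 arrays with liver transcripts), and 0 to 8 leaving out 1 array, 8 being without anti-miR-210 ischemic replicate 4; over all probes it was 189 and ranged from 0 to 9518. For the difference of responses median scaling gave 26 members. For scramble non-ischemic against untreated muscle array weights gave 3. For anti-miR-210 non-ischemic against untreated muscle (1 called), it was 2 without background correction, 2 with median scaling, 0 with no filter, 0 with 1 probe per gene, 0 with only the groups compared, 0 with the replicate block, 2 with brightness as covariate, 6 with array weights, and 0 to 1 leaving out 1 array. The causes were not tested. The labels do not say that equal replicate numbers mark shared animals, and whether they pair the samples is not settled: deviations of same-numbered ischemic and non-ischemic arrays correlated at 0.08 to 0.25 after anti-miR-210 and 0.05 to 0.19 after scramble, not above 0.1 in every pair, so no block was used. A replicate block left 49 members called in each ischemia comparison; with it H2bc9 was no longer called (adjusted p = 0.0802). Without untreated replicates 2 and 3 together, untreated muscle is a lone array, which also carries liver transcripts, assumed to vary like the other groups. Probes near the floor of detection, 4.40 to 4.65, cannot show a fall.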
